A study of Mus musculus with 25 samples.

Results

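The glutathione S-transferases (GST), UDP-glucuronosyltransferases (UGT) and sulfotransferases (SULT) of mouse liver were followed through a diet and toxin model of fatty liver disease with and without mannose. Members were taken by gene symbol: the alpha, mu, pi and theta GSTs, the Ugt1a, Ugt2 and Ugt3a genes, and the Sult1 to Sult6 genes, each with at least 10 counts in at least 3 of the 25 libraries. The rule uses a level over all libraries and no difference between groups. It kept 47 of 60 genes with such a name (GST 17 of 18, UGT 18 of 21, SULT 12 of 21), out of 56980 genes in the count table.

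Liver poly-A RNA was sequenced from male C57BL/6J mice, aged 8 weeks when the diets began and 20 weeks when they ended. Controls had normal chow and water for 12 weeks. The FAT-MASH groups had the FAT-MASH regimen for 12 weeks: chow holding 41% sucrose, 21.1% fat and 1.25% cholesterol, water with 23.1 g/L fructose and 18.9 g/L glucose, and weekly intraperitoneal carbon tetrachloride (CCl4), a liver toxin. Chow, sugar water and toxin were given together in every FAT-MASH group, so they cannot be told apart. Whether the normal-diet mice had a vehicle injection is not given in the sources used here. Mannose, a hexose sugar, was added to the drinking water at 5% or 20%, either throughout the 12 weeks, called prevention, or in the closing 6 weeks, called therapy. The samples carry 2 batch labels, and what these mark is not given. The 18 libraries of batch 1 form 6 groups of 3: normal diet, the FAT-MASH regimen without mannose, and the regimen combined with either dose at either timing. All 7 libraries of batch 2 come from normal-diet mice, of which 2 drank plain water, 2 drank 5% and 3 drank 20% mannose for 12 weeks. The replicates are labelled as biological, the mice were housed 3 to 5 per cage, and which mice shared a cage is not given.

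These enzymes carry out the second phase of detoxification, in which a polar group is joined to a drug, hormone, bile acid, pigment or reactive lipid so that it can leave the cell in bile or blood. GSTs add glutathione to electrophiles, UGTs add a sugar, mostly glucuronic acid, and SULTs add sulfate from the donor PAPS. In liver they are made mainly by hepatocytes, and many are known targets of xenobiotic-sensing receptors, of the antioxidant factor NRF2 or of sex-dependent growth hormone signalling.

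Library totals were 31298299 to 56010646 counts in batch 1 and 35971380 to 49752882 in batch 2, and the members held 1.01% to 1.81% of a library's counts. Among gene values of 1 to 10 counts, 75.9% to 81.6% were even numbers, so both mates of a read pair appear to have been counted, and the number of fragments is then lower than the counts. The 8 hepatocyte markers were all detected. Their summed level was 93700 to 104000 CPM (counts scaled to a common library size) with FAT-MASH, 80800 to 101000 with 20% prevention and 67200 to 75900 with 20% therapy. All 6 markers of dividing cells were higher in both 20% groups than with FAT-MASH, with sums of 66.7 to 76.6 and 95.1 to 288 CPM against 8.34 to 13.4. In whole liver, fewer hepatocytes and less RNA per hepatocyte cannot be told apart, and the part of these shifts in the values below was not tested. Levels are CPM scaled by TMM, a correction for library composition, within each batch. Differences are log2 fold changes with their standard error, and a gene passed where its adjusted p (edgeR quasi-likelihood test, Benjamini-Hochberg over all genes) was under 0.05.

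On normal diet the level per kilobase of exon was led by Gstm1 at 2205 ± 535 CPM per kb (SD, n = 3 in batch 1), Gstp1 at 1239 ± 52.4 and Gsta3 at 546 ± 72.6 among the GSTs. These stand for the mu, pi and alpha classes, and together with the theta class they cover most soluble liver GST. Ugt2b5 at 719 ± 74.1, Ugt2b36 at 434 ± 36.1 and Ugt2b1 at 386 ± 38.8 led the UGTs. Sult2a8, a hydroxysteroid sulfotransferase known as the main bile acid sulfotransferase of mouse liver, led the SULTs at 369 ± 29.7, ahead of the phenol sulfotransferase Sult1a1 at 161 ± 14.6 and the catecholamine sulfotransferase Sult1d1 at 59.3 ± 7.99. Ugt2b36 and Ugt2b1 are neighbours in that order whose difference is about the size of their spread. Sult2a8 alone made up 72.8% of the summed SULT CPM on normal diet. By contrast, Gstm1 was 36.6% of the GST sum and Ugt2b5 25.2% of the UGT sum.

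The members differed in how they moved. FAT-MASH against normal diet lowered 10 of 46 tested members and raised 0 in edgeR, where 13.7% of all 19571 genes passed (7.81% higher, 5.92% lower), and DESeq2 called 1 member higher. In the same comparison 8 of 8 macrophage markers were higher (sums of 633 to 1160 against 293 to 332 CPM), as were 5 of 8 stellate cell and fibroblast markers (406 to 486 against 235 to 284 CPM) and 3 of 5 tested neutrophil markers (16.1 to 18.7 against 5.59 to 8.72 CPM, with Ly6g at 0 on normal diet). Of 12 pericentral genes 5 were lower, and of 8 hepatocyte markers 2. Their part in the members' falls was not tested. With 20% prevention against FAT-MASH, 4 were higher and 9 lower, where 15.1% of all genes passed (6.83% higher, 8.26% lower). With 20% therapy 6 were higher and 16 lower, where 21.4% passed (10.2% higher, 11.3% lower). Of those 6, Sult2b1 and Sult4a1 had at least 10 counts in mannose libraries alone and are members only through them, which leaves 4. With 5% prevention 0 were higher and 2 lower in edgeR, where 2.27% passed (0.966% higher, 1.31% lower) and DESeq2 called 1 member higher. With 5% therapy 0 passed in either direction in edgeR (all genes 0.0358%, of which 0.0255% higher and 0.0102% lower), where 4 had an unadjusted p under 0.05 and DESeq2 called 1, lower. The median log2 fold change over the tested members was -0.35, -0.04, 0.00, 0.12 and -0.34 for FAT-MASH, 5% prevention, 20% prevention, 5% therapy and 20% therapy, and that of all genes lay between -0.01 and 0.03. All mannose comparisons on FAT-MASH share the same 3 FAT-MASH libraries. When libraries were scaled by their totals alone, the median of all genes itself moved to 0.20 for 20% prevention and 0.30 for 20% therapy, and the members split into 7 higher and 4 lower and into 10 higher and 14 lower. For genes named below, calls of single groups against FAT-MASH or normal diet that were lost under that scaling are stated with the gene.

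**Figure D1:**
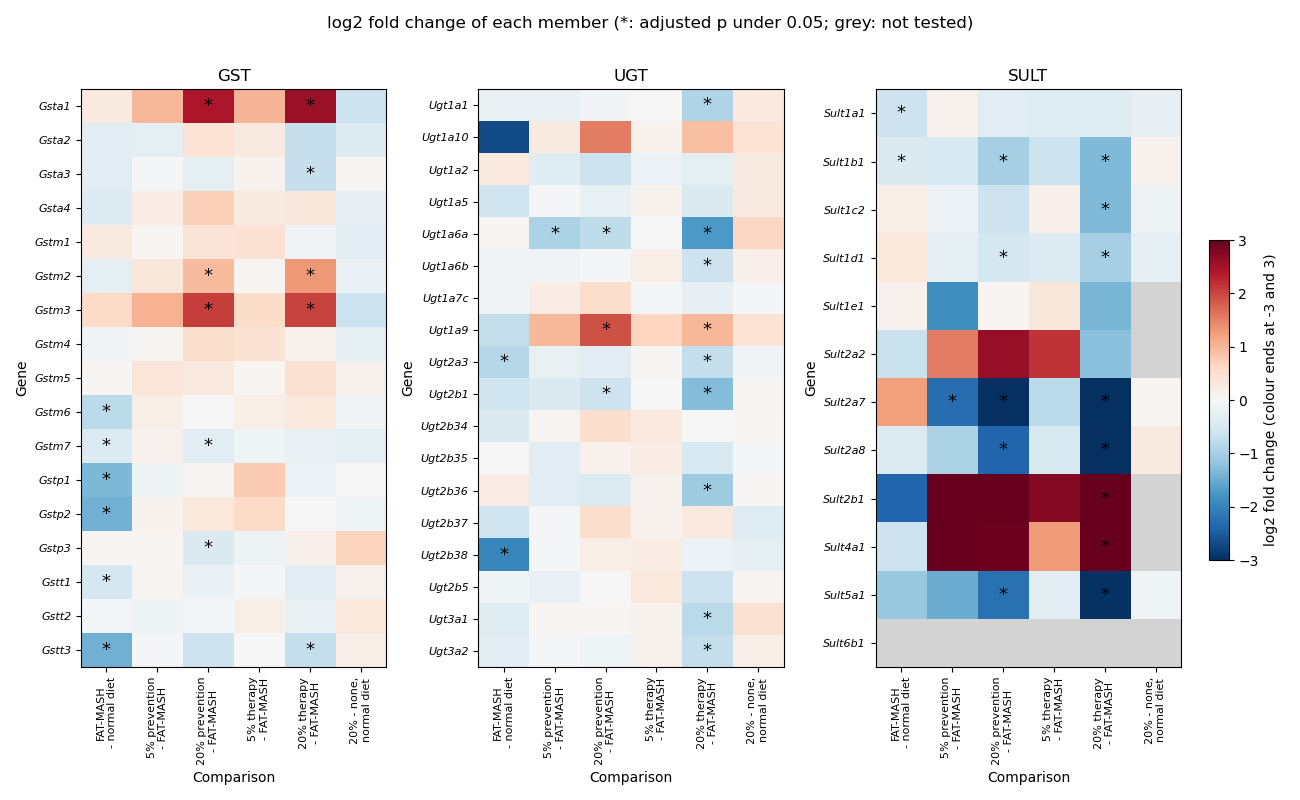
Log2 fold change (colour, ending at -3 and 3) of each member (vertical axis) in 6 comparisons (horizontal axis), in a panel per family, with a star where the adjusted p was under 0.05 and grey where the gene was not tested. The 20% columns hold the stars of Gsta1, Gstm2, Gstm3 and Ugt1a9 on the red side and those of Sult2a8, Sult2a7, Sult5a1, Sult1b1 and Sult1d1 on the blue side, while the normal-diet column has none; the strong colours of Sult2b1, Sult4a1, Sult2a2 and Sult1e1 rest on few counts.

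The steepest falls were among the sulfotransferases. Sult2a8 was at 1188, 1131 and 1321 CPM on normal diet and at 848, 975 and 939 CPM with FAT-MASH. Under 20% prevention it was at 224, 141 and 171 CPM, and under 20% therapy at 31.5, 207 and 70.6 CPM. All 6 libraries with 20% mannose lay below every other library of batch 1, and the 20% therapy replicates differed by 6.57-fold among themselves. Sult2a8 fell by 2.37 ± 0.40 on the log2 scale with 20% prevention (adjusted p = 0.000534, edgeR quasi-likelihood test) and by 3.16 ± 0.41 with 20% therapy (adjusted p = 1.73e-05). The group means were 19.4% and 11.2% of the FAT-MASH mean.

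With 5% prevention Sult2a8 was at 402, 505 and 520 CPM, and with 5% therapy at 655, 758 and 612 CPM, below the FAT-MASH libraries in both cases. Neither difference passed, at -0.95 ± 0.38 (edgeR adjusted p = 0.227) and -0.45 ± 0.38 (edgeR adjusted p = 0.936). In the libraries, 20% lay below 5% at either timing. The contrast of 20% with 5%, averaged over timing, gave -2.06 ± 0.28 for Sult2a8 (edgeR adjusted p = 4.49e-05). FAT-MASH against normal diet gave -0.40 ± 0.38, which did not pass (edgeR adjusted p = 0.563).

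Because Sult2a8 dominates the family, the summed SULT level followed it. The sum was 1667 ± 152 CPM (SD, n = 3) on normal diet, 1310 ± 77.3 with FAT-MASH, 827 ± 73.4 with 5% prevention, 969 ± 57.8 with 5% therapy, 452 ± 56.6 with 20% prevention and 333 ± 70.6 with 20% therapy. No library with 20% mannose exceeded 514 CPM, and no FAT-MASH library was under 1229 CPM. The SULT sum on normal diet with 20% mannose was 1511 ± 85.5 CPM (n = 3) in batch 2.

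Sult2a7, a low-level gene of the same hydroxysteroid subfamily near Sult2a8 on chromosome 7 (Sult2a8 at chr7:14144611-14180694 and Sult2a7 at chr7:14198976-14228155, both on the minus strand of GRCm39), was at 6.22, 5.00 and 5.97 CPM with FAT-MASH. It was at 1.02, 0.263 and 0.212 CPM with 20% prevention and at 0.164, 0.434 and 0.369 CPM with 20% therapy. These values rest on 12 to 42 and 8 to 20 counts per library. The groups did not overlap, and the differences were -3.55 ± 0.51 (edgeR adjusted p = 0.000125) and -4.14 ± 0.53 (edgeR adjusted p = 1.29e-05). With 5% prevention it was at 0.759, 1.09 and 1.68 CPM and also passed, at -2.29 ± 0.47 (edgeR adjusted p = 0.0143). That call was lost on leaving out FAT-MASH replicate 1 (adjusted p = 0.0535), or 5% prevention replicate 1 (0.0900) or 2 (0.0504). The normal-diet libraries of batch 1, at 3.07, 1.78 and 2.52 CPM, lay below those with FAT-MASH, a difference of 1.22 ± 0.45 that did not pass (edgeR adjusted p = 0.0810).

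Sult5a1, an orphan sulfotransferase, was at 16.9, 11.7 and 28.8 CPM on normal diet and at 6.01, 11.7 and 8.59 CPM with FAT-MASH. It was at 2.54, 1.84 and 1.25 CPM with 20% prevention and at 0.471, 1.95 and 0.922 CPM with 20% therapy, below all libraries without mannose. It fell by 2.23 ± 0.47 (edgeR adjusted p = 0.00303) and by 2.97 ± 0.49 (edgeR adjusted p = 0.000199) on the log2 scale.

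Among the Sult1 genes, Sult1b1, which acts on thyroid hormones and phenols, was at 34.2, 37.8 and 45.4 CPM on normal diet, 26.9, 26.3 and 33.1 CPM with FAT-MASH, 16.6, 12.7 and 13.9 CPM with 20% prevention and 12.1, 10.8 and 11.6 CPM with 20% therapy. These 4 groups of batch 1 do not overlap. The normal-diet libraries of batch 2 without mannose were at 21.3 and 29.8 CPM, below and within the FAT-MASH range. Sult1b1 fell by 1.00 ± 0.15 with 20% prevention (edgeR adjusted p = 0.000154) and by 1.32 ± 0.15 with 20% therapy (edgeR adjusted p = 2.79e-06). The smaller fall with FAT-MASH, 0.44 ± 0.14 on the log2 scale (edgeR adjusted p = 0.0457), was lost without normal diet replicate 2 or 3 (adjusted p = 0.0741 and 0.197), without FAT-MASH replicate 1 or 2 (0.145 and 0.140), with library totals alone (0.0904) and in the fit of all 25 libraries (0.0655).

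Sult1d1 was at 183, 167 and 195 CPM with FAT-MASH, at 139, 119 and 119 CPM with 20% prevention, and at 101, 85.1 and 86.7 CPM with 20% therapy. It fell by 0.53 ± 0.16 (edgeR adjusted p = 0.0289) and by 1.00 ± 0.16 (edgeR adjusted p = 0.000156). The fall with 20% prevention was lost with library totals alone as scaling (adjusted p = 0.135), without FAT-MASH replicate 1 or 3 (0.0736 and 0.0962) and without 20% prevention replicate 2 or 3 (0.106 and 0.0940). Sult1c2 was at 5.93, 4.08 and 5.27 CPM with FAT-MASH and at 1.88, 2.04 and 2.14 CPM with 20% therapy, a fall of 1.33 ± 0.22 (edgeR adjusted p = 0.000227).

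Sult1a1 had another pattern. It was at 240, 222 and 266 CPM on normal diet and at 152, 128 and 196 CPM with FAT-MASH, and it fell by 0.62 ± 0.14 (edgeR adjusted p = 0.00692). With 20% mannose it was at 125 to 127 CPM under prevention and 107 to 138 CPM under therapy, which did not pass against FAT-MASH (edgeR adjusted p = 0.141 and 0.0749).

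The remaining 5 SULT members were near the detection limit. Sult2b1, which sulfates cholesterol, had 0, 2 and 0 counts with FAT-MASH and 49, 3 and 55 counts with 20% therapy. Sult4a1, known from brain, had 4, 4 and 0 counts with FAT-MASH and 46, 24 and 71 with 20% therapy. Every library with at least 10 counts of either gene was from a mouse given mannose, so both are members only through the groups where they are high, and their difference with 20% therapy is no support for a change. Sult2b1 was high in 2 of the 3 therapy libraries. The estrogen sulfotransferase Sult1e1 had at most 14 counts in any library, Sult2a2 at most 20 and Sult6b1 at most 26. Sult6b1 was too low to be tested in either batch alone.

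The rule's threshold lay among these genes. Sult2a2 had at least 10 counts in 3 libraries, Sult6b1 in 4, Sult1e1 in 5, Sult2b1 in 7, Sult4a1 in 9 and Ugt1a10 in 10. Just outside were Sult2a1, Sult3a1 and Ugt1a8 in 2 libraries each and Sult6b2 in 1. The others left out were Gstt4, Ugt2a1, Ugt2a2, Sult1c1, Sult2a3, Sult2a4, Sult2a5, Sult2a6 and Sult3a2. Several of these Sult2a and Sult3a genes are known as female-predominant in mouse liver.

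**Figure D2:**
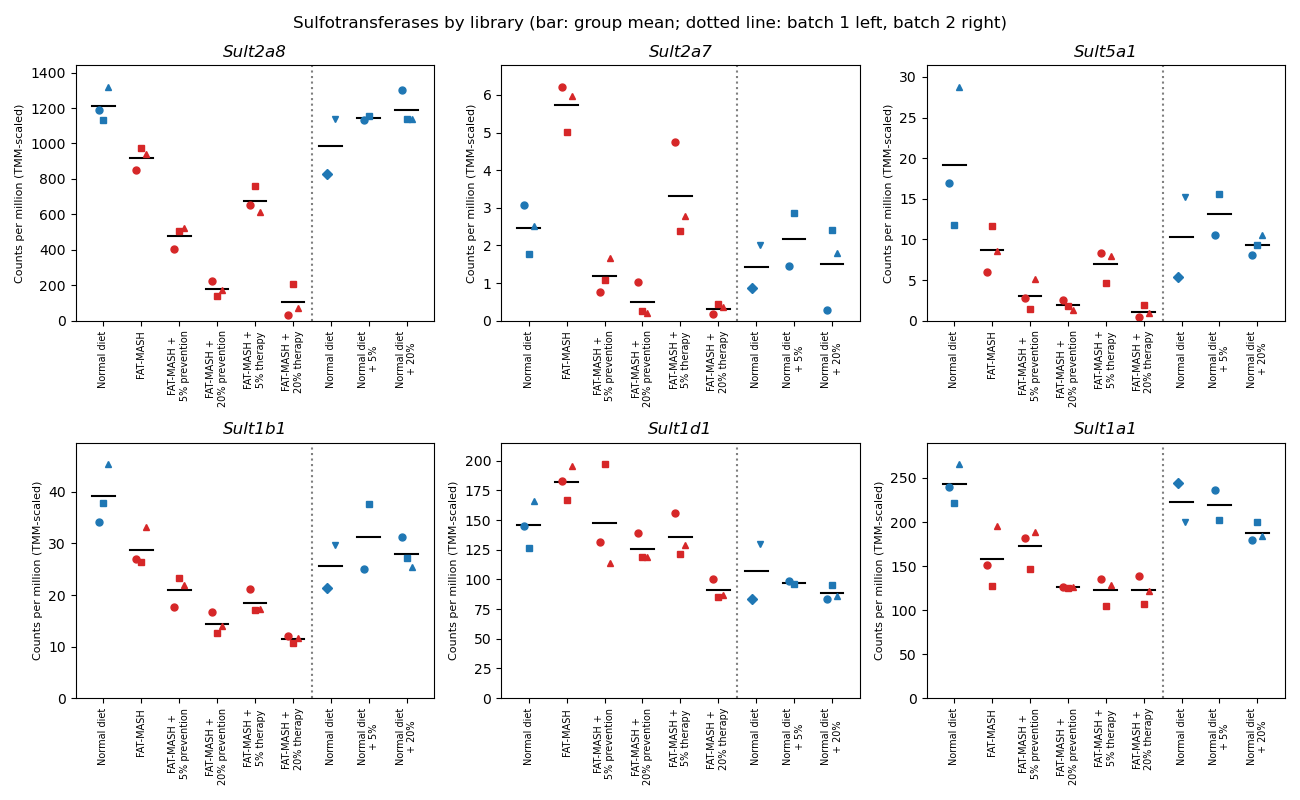
CPM of 6 sulfotransferases (vertical axes, linear from 0) in each library by group (horizontal axes), red for FAT-MASH groups and blue for normal-diet groups, a marker shape per replicate, a bar at the group mean and a dotted line between the batches. The 20% prevention and 20% therapy points of Sult2a8, at 224 CPM or lower, sit below all others, while the batch 2 points with 20% mannose on normal diet sit at 1137 to 1300 CPM.

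The glutathione S-transferases went both ways. With FAT-MASH, 6 of 17 GSTs were lower than on normal diet and 0 higher, 35.3% against 13.7% of all genes. With 20% mannose 3 of 17 were higher and 2 lower at either timing. That is 29.4%, against 15.1% of all genes with prevention and 21.4% with therapy. Gsta1, an inducible alpha-class enzyme, and the mu-class Gstm2 and Gstm3 rose in both comparisons, which share their FAT-MASH libraries.

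Gsta1 was at 14.8, 7.97 and 4.76 CPM on normal diet and at 10.5, 9.59 and 13.2 CPM with FAT-MASH. It was at 56.9, 101 and 20.2 CPM with 20% prevention and at 71.9, 79.2 and 49.3 CPM with 20% therapy. All 6 libraries with 20% mannose were above the FAT-MASH libraries, and the prevention replicates spread 5.00-fold. Gsta1 rose by 2.42 ± 0.56 (edgeR adjusted p = 0.00576) and by 2.59 ± 0.56 on the log2 scale (edgeR adjusted p = 0.00222). Of its 100-base stretches 81.8% also occur in another gene's transcripts, mainly in Gm3776, and how reads that align to both were counted is not given in the sources used here. Gm3776 itself was at 1.77 to 3.64 CPM with FAT-MASH, 6.61 to 36.2 with 20% prevention and 17.6 to 22.6 with 20% therapy. The level of either gene is uncertain, and whether each of them rose cannot be told. Their sum was at 11.4 to 16.3 CPM with FAT-MASH, 26.9 to 137 with 20% prevention and 66.9 to 101 with 20% therapy.

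Gstm3 was at 169, 211 and 312 CPM with FAT-MASH, at 1115, 1327 and 477 CPM with 20% prevention and at 824, 974 and 1033 CPM with 20% therapy. The groups did not overlap, and it rose by 2.08 ± 0.34 (edgeR adjusted p = 0.000401) and by 2.03 ± 0.34 (edgeR adjusted p = 0.000209). With 5% prevention it was at 328, 761 and 335 CPM, all above the FAT-MASH libraries, and the difference of 1.04 ± 0.33 did not pass (edgeR adjusted p = 0.108). Gstm2 was at 36.3, 59.1 and 65.6 CPM with FAT-MASH, at 108, 130 and 75.3 CPM with 20% prevention and at 122, 107 and 165 CPM with 20% therapy. It rose by 0.96 ± 0.21 (edgeR adjusted p = 0.00432) and by 1.29 ± 0.21 (edgeR adjusted p = 0.000209).

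The most abundant GSTs did not share this rise. Gstm1 was at 3789, 3611 and 2344 CPM on normal diet, 4217, 3297 and 4216 CPM with FAT-MASH, 5957, 6538 and 2850 CPM with 20% prevention and 3171, 4289 and 3382 CPM with 20% therapy. The groups overlapped, and the differences from FAT-MASH, 0.39 ± 0.32 and -0.11 ± 0.32, did not pass (edgeR adjusted p = 0.482 and 0.850). Gsta3, the constitutive alpha-class enzyme of mouse liver, was at 1845, 1792 and 1975 CPM with FAT-MASH and at 1078, 1401 and 1025 CPM with 20% therapy. It fell by 0.68 ± 0.15 (edgeR adjusted p = 0.00234). With 20% prevention Gsta3 was at 1717, 1670 and 1249 CPM, a difference of -0.28 ± 0.15 that did not pass (edgeR adjusted p = 0.239).

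Gstp1, the pi-class enzyme, was among the GSTs that fell with FAT-MASH. It was at 1892, 2009 and 1854 CPM on normal diet and at 794, 828 and 640 CPM with FAT-MASH, 39.3% of the normal-diet mean, and fell by 1.35 ± 0.28 (edgeR adjusted p = 0.00308). With 20% mannose it overlapped the FAT-MASH libraries, at 859, 983 and 474 CPM under prevention and 489, 1017 and 507 CPM under therapy, with differences of 0.03 ± 0.28 and -0.17 ± 0.28 (edgeR adjusted p = 0.961 and 0.730). With 5% therapy it was at 1090, 1224 and 1505 CPM, above the FAT-MASH and below the normal-diet libraries, and the difference of 0.76 ± 0.28 did not pass (edgeR adjusted p = 0.606). Gstp2, which shares 63.5% of its 100-base stretches with other transcripts, mainly Gstp1, was at 35.5, 33.9 and 37.7 CPM on normal diet and 18.3, 10.9 and 10.3 CPM with FAT-MASH. It fell by 1.43 ± 0.41 (edgeR adjusted p = 0.0265), a call lost when normal diet replicate 1 or 3 was left out (0.0541 and 0.0640), or replicate 2 or 3 of FAT-MASH (0.0899 and 0.103), and the 2 normal-diet libraries of batch 2 were at 16.5 and 14.3 CPM. Of the 100-base stretches of Gstp1, 52.8% occur in other transcripts, mainly Gstp2, so reads of Gstp1 and Gstp2 cannot be fully told apart. The copy Gstp-ps, outside the rule, fell from 1155, 1236 and 1311 CPM to 563, 510 and 412 CPM. How much sequence it shares with them was not measured apart.

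Gstp3 was at 19.0 to 20.2 CPM with FAT-MASH and was at 15.3, 12.9 and 15.3 CPM with 20% prevention, a fall of 0.44 ± 0.11 (edgeR adjusted p = 0.00860). That fall was lost with library totals alone (adjusted p = 0.129), without the filter on low counts (0.0636) and without 20% prevention replicate 2 (0.0607).

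The theta-class Gstt3 was at 67.8, 55.9 and 73.1 CPM on normal diet, 23.9, 20.9 and 27.9 CPM with FAT-MASH and 19.7, 12.0 and 12.3 CPM with 20% therapy. It fell by 1.44 ± 0.23 with FAT-MASH (edgeR adjusted p = 0.000327) and by a further 0.72 ± 0.23 with 20% therapy (edgeR adjusted p = 0.0301). The second fall was lost with library totals alone (adjusted p = 0.185), without FAT-MASH replicate 1 or 3 (0.0648 and 0.115) and without 20% therapy replicate 2 or 3 (0.124 and 0.130). In batch 2 the normal-diet libraries were at 23.3 and 52.6 CPM, the lower of them within the FAT-MASH range, and Gstt3 overlaps another annotated gene, Gm20441. Gstm6 was at 156, 151 and 154 CPM on normal diet and at 77.4, 92.6 and 95.4 CPM with FAT-MASH, a fall of 0.80 ± 0.11 (edgeR adjusted p = 0.000109). The normal-diet libraries of batch 2, at 87.7 and 109 CPM, lay nearer to the FAT-MASH values than to those of batch 1.

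Gstt1, which acts on small halogenated molecules, and Gstm7 also fell with FAT-MASH, by 0.50 ± 0.13 and 0.42 ± 0.11 (edgeR adjusted p = 0.0112 and 0.0156). Both calls were lost without normal diet replicate 3 (adjusted p = 0.0581 and 0.0552), and that of Gstm7 also without FAT-MASH replicate 1 (0.0937). In batch 2 the normal-diet libraries without mannose were at 214 and 304 CPM for Gstt1, against 231 to 251 CPM with FAT-MASH. For Gstm7 they were at 65.0 and 66.1 CPM, within the FAT-MASH range of 50.8 to 67.5 CPM. Gstm7 fell by a further 0.35 ± 0.11 with 20% prevention (edgeR adjusted p = 0.0399), which was lost without FAT-MASH replicate 2 or 3 (0.177 and 0.158), without any of the 20% prevention replicates (0.0614 to 0.121) and with library totals alone (0.316). Gsta2, Gsta4 (active on lipid peroxidation aldehydes such as 4-hydroxynonenal), Gstm4, Gstm5 and Gstt2 passed in none of these 5 comparisons. The summed GST level was 8878 ± 1130 CPM on normal diet, 7639 ± 580 with FAT-MASH, 7955 ± 3250 with 5% prevention, 9456 ± 3190 with 20% prevention, 9913 ± 2110 with 5% therapy and 7361 ± 1200 with 20% therapy (SD, n = 3 each). The 5% therapy libraries, at 8692 to 12350 CPM, were above those with FAT-MASH, at 6976 to 8054 CPM, and the other groups overlapped FAT-MASH.

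**Figure D3:**
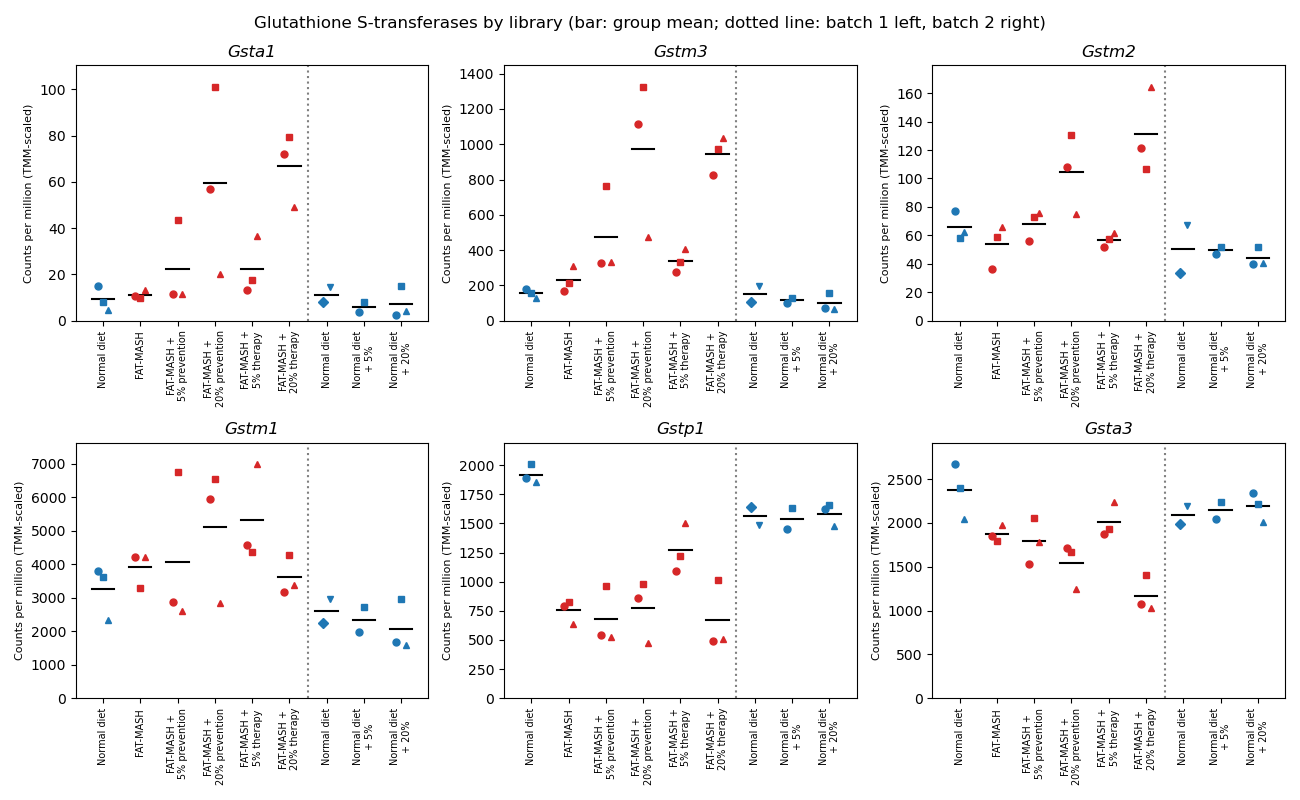
CPM of 6 glutathione S-transferases (vertical axes, linear from 0) in each library by group (horizontal axes), red for FAT-MASH groups and blue for normal-diet groups, a marker shape per replicate, a bar at the group mean and a dotted line between the batches. Gsta1, Gstm3 and Gstm2 are highest with 20% mannose on FAT-MASH, Gstp1 is at 640 to 828 CPM with FAT-MASH against 1854 to 2009 CPM on normal diet, and Gstm1 spreads from 2850 to 6538 CPM within 20% prevention.

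Within groups, many GSTs were high or low in the same mouse. In 5% prevention, replicate 2 had the highest level for 14 of 17 GSTs. Under 20% prevention, replicate 3 had the lowest for 14 of 17, and under 5% therapy, replicate 3 had the highest for 13 of 17. The UGTs showed the same in 20% prevention, where replicate 3 was lowest for 14 and replicate 1 highest for 13 of the 15 UGTs with a mean of at least 1 CPM. For the 7 SULTs at that level the same replicate 3 was lowest for 3. In 5% prevention replicate 2, Gstm1 reached 6765 CPM against 2858 and 2600 CPM in the other 2 libraries, and Gsta1 43.5 CPM against 11.3 and 11.7 CPM. These members share a library, so their joint position is 1 observation per mouse.

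Promoters are shown for the 3 GSTs that rose and for 2 of the 5 SULTs that fell with 20% mannose at both timings, those with the largest falls among the SULTs with an entry. They are the 250 bases before the annotated start, 5′ to 3′ on the gene's strand, from RefSeq on GRCm38.p6, while gene positions elsewhere are GRCm39. Capitals mark any match, on either strand, to TGACNNNGC (core of the antioxidant response element bound by NRF2), GCGTG (core of the element bound by the aryl hydrocarbon receptor) or TTCNNNGAA (STAT5).
Gsta1, chr9:78230419-78230668, + strand: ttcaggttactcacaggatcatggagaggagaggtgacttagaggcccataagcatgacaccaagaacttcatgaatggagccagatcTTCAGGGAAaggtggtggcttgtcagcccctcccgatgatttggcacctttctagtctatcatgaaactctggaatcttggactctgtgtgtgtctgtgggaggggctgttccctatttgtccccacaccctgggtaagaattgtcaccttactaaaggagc
Gstm3, chr3:107969175-107969424, - strand: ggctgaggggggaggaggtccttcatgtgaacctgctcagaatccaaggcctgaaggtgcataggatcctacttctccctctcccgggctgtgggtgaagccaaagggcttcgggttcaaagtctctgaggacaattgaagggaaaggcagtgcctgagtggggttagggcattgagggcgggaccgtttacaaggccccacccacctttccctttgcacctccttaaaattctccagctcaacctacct
Gstm2, chr3:107986421-107986670, - strand: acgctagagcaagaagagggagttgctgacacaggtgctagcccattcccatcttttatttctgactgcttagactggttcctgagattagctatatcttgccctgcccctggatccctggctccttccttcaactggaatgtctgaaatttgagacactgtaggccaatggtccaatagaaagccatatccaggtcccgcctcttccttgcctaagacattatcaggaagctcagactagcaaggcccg
Sult2a8, chr7:14446588-14446837, - strand: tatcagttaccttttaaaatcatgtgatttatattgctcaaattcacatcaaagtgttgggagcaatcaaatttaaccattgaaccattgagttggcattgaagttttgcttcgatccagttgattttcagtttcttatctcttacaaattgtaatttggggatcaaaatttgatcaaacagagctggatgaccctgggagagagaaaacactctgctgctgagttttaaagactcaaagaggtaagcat
Sult5a1, chr8:123158281-123158530, - strand: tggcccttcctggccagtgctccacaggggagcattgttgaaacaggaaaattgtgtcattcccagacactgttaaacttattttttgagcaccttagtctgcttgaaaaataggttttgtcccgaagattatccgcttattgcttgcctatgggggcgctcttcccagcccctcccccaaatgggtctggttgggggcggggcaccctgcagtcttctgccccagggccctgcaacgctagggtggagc

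Of these 5 windows, the Gsta1 window held a match, to the STAT5 letters, and the other 4 held none of these letters. Sult2a8 has a further start, whose window held none either. Sult1b1 and Sult1d1, which also fell and are not shown, each hold GCGTG in 1 window. Promoters were matched for 40 of the 47 members. TGACNNNGC was in 3 of 15 GSTs (Gsta3, Gstm5 and Gstm7), 0 of 16 UGTs and 0 of 9 SULTs, and in 10.2% of 32841 promoters of that length. GCGTG was in 5, 1 and 3 members of these families and in 28.2% of all promoters, and TTCNNNGAA in 2, 1 and 0 members and 7.02% of all. A match describes letters in the window, not binding.

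Of the 18 UDP-glucuronosyltransferases, 8 were lower and 1 higher with 20% therapy than with FAT-MASH, 50% against 21.4% of all genes. With 20% prevention 2 were lower and 1 higher, 16.7% against 15.1% of all genes, and with FAT-MASH against normal diet 2 were lower and 0 higher, 11.1% against 13.7%. The shares in the last 2 comparisons are near those of all genes. The summed UGT level was 5302 ± 451 CPM on normal diet, 4544 ± 196 with FAT-MASH, 3901 ± 1160 with 5% prevention, 4253 ± 768 with 20% prevention, 5164 ± 109 with 5% therapy and 2812 ± 655 with 20% therapy (SD, n = 3 each). The highest 20% therapy library, at 3569 CPM, was below the lowest FAT-MASH library, at 4381 CPM.

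Of the Ugt2 genes, which handle steroids, fatty acids and drugs, Ugt2b1 was at 588, 715 and 680 CPM with FAT-MASH, 526, 412 and 342 CPM with 20% prevention and 199, 372 and 242 CPM with 20% therapy. It fell by 1.29 ± 0.21 with 20% therapy (edgeR adjusted p = 0.000187). Its fall with 20% prevention, 0.63 ± 0.21 (edgeR adjusted p = 0.0476), was lost with library totals alone (0.109), without any of the FAT-MASH replicates (0.0587 to 0.150) and without 20% prevention replicate 2 or 3 (0.133 and 0.186). Ugt2b36 was at 1160, 993 and 1035 CPM with FAT-MASH and 451, 635 and 439 CPM with 20% therapy, a fall of 1.06 ± 0.18 (edgeR adjusted p = 0.000196). The most abundant member, Ugt2b5, was at 1370, 1154 and 1104 CPM with FAT-MASH and 662, 1070 and 625 CPM with 20% therapy. The groups did not overlap, yet the difference of -0.62 ± 0.23 did not pass (edgeR adjusted p = 0.0589).

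Ugt2a3 fell at both steps: it was at 375, 312 and 373 CPM on normal diet, 193, 193 and 204 CPM with FAT-MASH and 116, 115 and 126 CPM with 20% therapy. The falls were 0.85 ± 0.13 (edgeR adjusted p = 0.000293) and 0.72 ± 0.13 (edgeR adjusted p = 0.000618). Ugt2b38 was at 12.4, 16.3 and 38.8 CPM on normal diet and 5.59, 7.52 and 4.20 CPM with FAT-MASH, a fall of 1.96 ± 0.41 (edgeR adjusted p = 0.00302). It shares 24.2% of its 100-base stretches with other transcripts, mainly those of Ugt2b5. Ugt2b34, Ugt2b35 and Ugt2b37 passed in none of the 5 comparisons.

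The Ugt1a genes are made from 1 locus on chromosome 1 by joining alternative first exons to shared later exons, and 17.3% to 49.7% of a member's exon bases are its own. How reads in shared exons were counted is not given in the sources used here, so the members' counts may not be independent of each other. For Ugt1a6a, 100% of the 100-base stretches also occur in another gene's transcripts, mainly Ugt1a7c. Ugt1a1, the bilirubin UGT, was at 47.0, 44.5 and 52.2 CPM with FAT-MASH, 47.9, 46.5 and 41.1 CPM with 20% prevention and 21.9, 24.9 and 29.5 CPM with 20% therapy. It fell by 0.91 ± 0.15 with therapy (edgeR adjusted p = 0.000205), and with prevention the difference was -0.09 ± 0.15 (edgeR adjusted p = 0.776). Ugt1a6a, a phenol UGT, was at 15.8, 13.5 and 9.94 CPM with FAT-MASH and 3.99, 3.89 and 4.08 CPM with 20% therapy, a fall of 1.72 ± 0.24 (edgeR adjusted p = 3.51e-05). On normal diet without mannose Ugt1a6a was at 10.6 to 14.9 CPM in batch 1 but at 2.19 and 4.51 CPM in batch 2. Its falls with 5% and 20% prevention, 0.96 ± 0.23 and 0.76 ± 0.23 (edgeR adjusted p = 0.0369 and 0.0303), were lost without FAT-MASH replicate 1 (0.165 and 0.151) or 2 (0.101 and 0.0844) and with library totals alone (0.0599 and 0.0870). The first was also lost without 5% prevention replicate 1 or 3 (0.157 and 0.130), and the second without 20% prevention replicate 2 or 3 (0.154 and 0.0685). Ugt1a6b fell by 0.62 ± 0.19 with 20% therapy (edgeR adjusted p = 0.0260), a call lost with library totals alone (0.204), without FAT-MASH replicate 2 or 3 (0.0566 and 0.142) and without 20% therapy replicate 1 (0.133).

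Ugt1a9, another phenol UGT, rose with 20% mannose. It was at 11.3, 13.9 and 22.8 CPM with FAT-MASH, 67.5, 69.7 and 42.0 CPM with 20% prevention and 26.5, 30.3 and 38.6 CPM with 20% therapy, and at 24.8, 22.9 and 30.7 CPM on normal diet. All 6 libraries with 20% mannose were above the FAT-MASH libraries. The rises were 1.90 ± 0.34 (edgeR adjusted p = 0.000764) and 0.99 ± 0.33 (edgeR adjusted p = 0.0377), the latter lost when replicate 1 or 2 of FAT-MASH (0.164 and 0.122) or replicate 2 or 3 of 20% therapy (0.0591 and 0.135) was left out. Ugt1a2, Ugt1a5, Ugt1a7c and Ugt1a10 passed in none of the 5 comparisons. Ugt1a10 had 21, 25 and 9 counts on normal diet and 2, 1 and 6 with FAT-MASH.

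The Ugt3a genes, whose human relatives use other UDP sugars, both fell with 20% therapy. Ugt3a1 was at 34.9, 40.3 and 49.0 CPM with FAT-MASH and 19.9, 25.2 and 25.9 CPM with 20% therapy, a fall of 0.81 ± 0.17 (edgeR adjusted p = 0.00216). Ugt3a2 was at 376, 317 and 373 CPM and at 183, 268 and 198 CPM in these groups, a fall of 0.72 ± 0.14 (edgeR adjusted p = 0.000712).

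**Figure D4:**
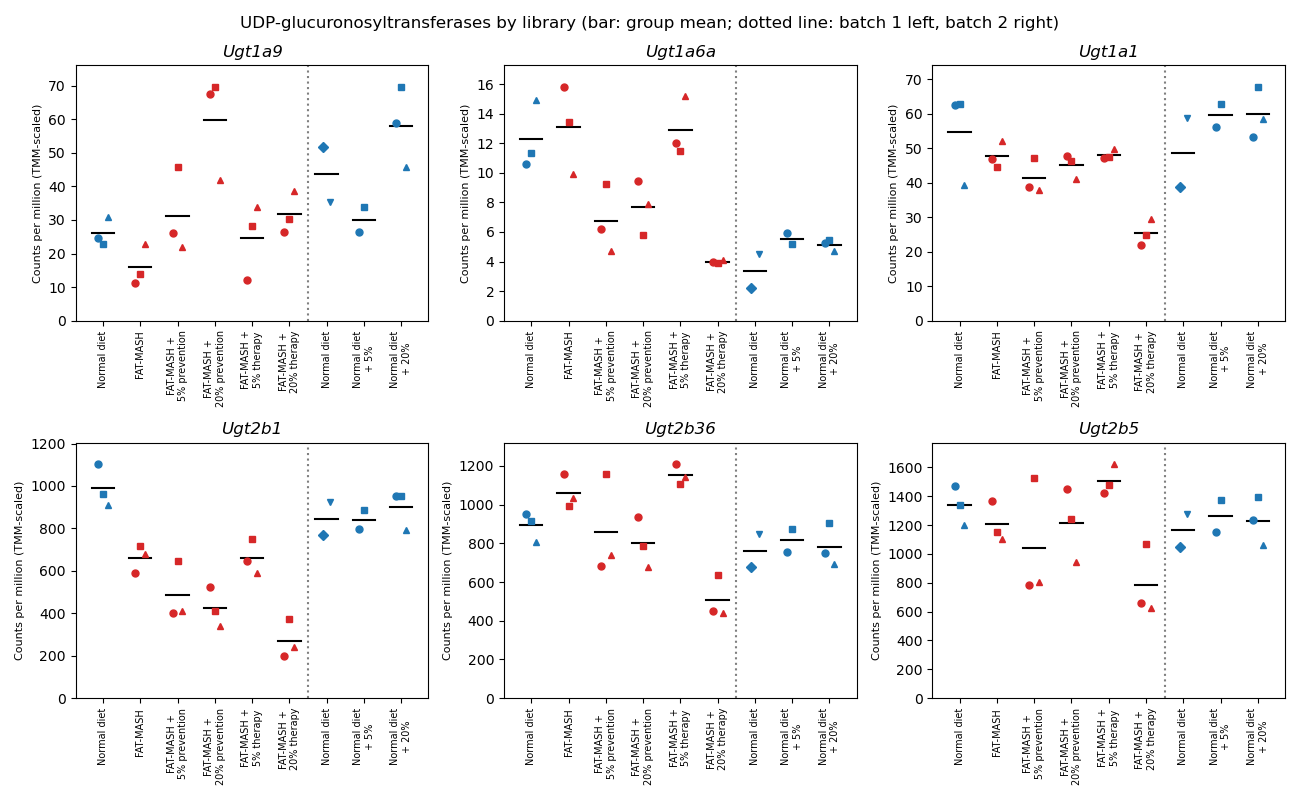
CPM of 6 UDP-glucuronosyltransferases (vertical axes, linear from 0) in each library by group (horizontal axes), red for FAT-MASH groups and blue for normal-diet groups, a marker shape per replicate, a bar at the group mean and a dotted line between the batches. Ugt1a9 peaks with 20% prevention at 42.0 to 69.7 CPM, and Ugt1a6a, Ugt1a1, Ugt2b1 and Ugt2b36 are lowest among the FAT-MASH groups with 20% therapy.

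Dose and timing were then compared within the FAT-MASH groups. With 20% against 5% mannose, averaged over timing, 3 members were higher and 17 lower, where 17% of all genes passed (8.12% higher, 8.92% lower). The 3 higher were Gsta1, Gstm2 and Gstm3. Among the 17 lower were 6 SULTs (Sult1b1, Sult1c2, Sult1d1, Sult2a7, Sult2a8 and Sult5a1), 7 UGTs and 4 GSTs. With library totals alone the split was 4 higher and 12 lower. For prevention against therapy, averaged over dose, 0 members and 0% of all genes passed in edgeR, where 7 members and 1449 genes had an unadjusted p under 0.05 and DESeq2 called 0 members and 20 genes. The interaction of dose with timing passed for 5 members, where 2.17% of all genes passed (1.16% higher, 1% lower). Ugt1a1, Ugt1a6a, Ugt2b36 and Ugt3a2 had positive values of 1.05 ± 0.21, 1.89 ± 0.33, 1.08 ± 0.25 and 0.78 ± 0.19 (edgeR adjusted p = 0.0163, 0.00845, 0.0274 and 0.0390) for prevention minus therapy in the effect of 20% against 5%. Under therapy the group mean was lower with 20% than with 5% for all 4. Under prevention it was lower for Ugt2b36 (800 against 860 CPM) and Ugt3a2 (322 against 337 CPM) and higher for Ugt1a6a (7.71 against 6.74 CPM) and Ugt1a1 (45.2 against 41.3 CPM). Gstp3 had -0.82 ± 0.15 (edgeR adjusted p = 0.0118). The split was 4 higher and 1 lower, and 3 higher and 3 lower with library totals alone. Leaving out 5% prevention replicate 1 ended the calls of Gstp3 (0.0506), Ugt1a1 (0.0586), Ugt2b36 (0.0901) and Ugt3a2 (0.123). Ugt1a1 was also lost without replicate 1 of 20% prevention or 20% therapy (0.0518 and 0.0587), and Ugt2b36 and Ugt3a2 were each lost without any of 7 libraries of these groups: replicates 1 and 3 of 5% prevention, 5% therapy and 20% therapy, and replicate 1 of 20% prevention (0.0563 to 0.0973 and 0.0697 to 0.136).

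On normal diet mannose moved no member past the threshold. With 5% mannose 0 of 42 tested members and 0% of 18462 genes passed in edgeR, where 4 members and 1039 genes had an unadjusted p under 0.05, and DESeq2 called 0 members and 42 genes. With 20% mannose 0 members and 0.00542% of all genes passed in edgeR, where 3 members had an unadjusted p under 0.05 and DESeq2 called 0 members. Sult2a8 was at 828 and 1139 CPM without mannose, 1134 and 1158 with 5% and 1300, 1137 and 1137 with 20%. Gsta1 was at 7.87 and 14.4 CPM without and 2.34, 15.1 and 4.01 CPM with 20% mannose, and Gstm3 at 107 and 197 CPM without and 72.0, 154 and 66.8 CPM with it. The groups hold 2 or 3 mice, so a difference of modest size could be missed, and at low counts a large one too. Ugt1a7c had 35 and 38 counts without mannose and 0 and 1 with 5%, and did not pass. With 20% mannose it had 43, 15 and 36 counts.

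The effect of 20% mannose over 12 weeks was therefore compared between the diets in a single fit of all 25 libraries with a batch term. The difference passed for 8 members, 3 higher and 5 lower, where 5.67% of all genes passed (2.26% higher, 3.41% lower). Gstm3 gave 2.71 ± 0.53 (edgeR adjusted p = 0.00364), Gsta1 3.05 ± 0.91 (0.0478) and Gstm2 1.16 ± 0.34 (0.0473), all more positive on FAT-MASH. Sult2a8 gave -2.64 ± 0.53 (edgeR adjusted p = 0.00445), Sult2a7 -3.63 ± 0.90 (0.0177), Sult1b1 -1.13 ± 0.25 (0.00821), Gstp3 -1.11 ± 0.18 (0.000668) and Ugt1a6a -1.38 ± 0.38 (0.0334), all more negative on FAT-MASH. Part of a difference can lie on the normal-diet side, where no member passed. The batch 2 means without and with 20% mannose were 152 and 97.7 CPM for Gstm3 and 11.1 and 7.15 CPM for Gsta1. For Sult2a8 they were 984 and 1190 CPM. The libraries of these 3 genes overlapped, while those of Gstp3 and Ugt1a6a did not. Gstp3 was at 8.15 and 10.3 CPM there without mannose and at 13.9 to 15.9 CPM with 20%. Ugt1a6a was at 2.19 and 4.51 CPM without and at 4.71 to 5.46 CPM with 20%. The split was 5 higher and 4 lower with library totals alone. Under the alternatives run, the calls of Gstm3, Gstp3 and Sult2a8 held. Leaving out normal diet replicate 4, in batch 2, ended those of Sult1b1 (0.0786), Sult2a7 (0.114), Ugt1a6a (0.213) and Gsta1 (0.0662), and leaving out normal diet replicate 5 those of Gsta1 (0.150) and Gstm2 (0.357). Sult2a7 was also lost without 20% prevention replicate 2 (0.0507) or the normal-diet 20% replicate 2 (0.0514). Ugt1a6a was also lost when either of FAT-MASH replicates 1 and 2 was left out, or 20% prevention replicate 2, or the normal-diet 20% replicate 1 or 2 (0.0502 to 0.0884), and was at the threshold without 20% prevention replicate 3. With library totals alone Ugt1a6a was lost too (0.0692). With DESeq2 Gsta1 was lost (0.0516), and with voom Gsta1 (0.0600) and Gstm2 (0.0687). The calls of Gsta1 and Gstm2 were lost without most other single libraries as well, Gsta1 without normal diet replicate 2, any FAT-MASH replicate, 20% prevention replicate 1 or 2, or normal-diet 20% replicate 1 or 3 (0.0558 to 0.149). For Gstm2 the same held for replicates 2 and 3 of normal diet, 1 and 2 of FAT-MASH, 1 and 2 of 20% prevention, and 1 and 3 of 20% mannose on normal diet (0.0521 to 0.136). Sult5a1, at -2.09 ± 0.68 (edgeR adjusted p = 0.0721), and Ugt1a9, at 1.49 ± 0.46 (0.0600), did not pass.

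Genes that supply or surround these reactions were read from lists set beside the members. For the list counts here and below, 6.83% of all genes were higher and 8.26% lower with 20% prevention. With 20% therapy 10.2% were higher and 11.3% lower. Of 11 glutathione supply genes, 3 were higher and 1 lower with 20% mannose at either timing. Gss, glutathione synthetase, rose by 0.71 ± 0.14 with 20% prevention and 0.76 ± 0.14 with 20% therapy (edgeR adjusted p = 0.00139 and 0.000416), and Gpx1, glutathione peroxidase 1, fell by 0.81 ± 0.19 and 0.71 ± 0.19 (0.00609 and 0.00962). Of 9 tested genes of PAPS supply and sulfate handling, 1 was higher and 2 lower with 20% prevention and 1 higher and 4 lower with 20% therapy. Papss1, which makes PAPS, fell with FAT-MASH (-0.79 ± 0.15, edgeR adjusted p = 0.00121) and was higher with 20% prevention (0.60 ± 0.15, 0.00824) and 20% therapy (0.74 ± 0.15, 0.00113). Slc35b2, the PAPS carrier of the Golgi, fell by 0.53 ± 0.09 and 0.42 ± 0.09 in the 20% groups (edgeR adjusted p = 0.000759 and 0.00294). Of 8 genes of UDP-glucuronate supply, 0 passed with 20% prevention and 1, Slc35d2, was lower with 20% therapy.

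Of 12 other conjugation enzymes, 7 were lower with 20% prevention and 11 with 20% therapy, and 0 were higher in either. Inmt, which methylates indoleamines, fell by 0.91 ± 0.16 and 1.47 ± 0.16 (edgeR adjusted p = 0.000662 and 2.33e-06), and Acsm1, which activates medium-chain acids for glycine conjugation, by 0.65 ± 0.13 and 1.02 ± 0.13 (0.00232 and 1.79e-05). Of 8 GSTs outside the rule, 3 and 4 were lower. Gstk1, of the mitochondrial kappa class, fell by 0.80 ± 0.11 and 1.10 ± 0.11 (edgeR adjusted p = 8.71e-05 and 9.94e-07). Of 7 exporters of conjugates, Abcb1a was higher by 1.60 ± 0.22 and 1.11 ± 0.21 (edgeR adjusted p = 6.92e-05 and 0.000808), and Abcc6 fell by 0.61 ± 0.12 and 0.88 ± 0.12 (0.00121 and 1.79e-05).

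Of 16 regulators of conjugation genes, 1 was higher and 3 lower with 20% prevention, and 1 higher and 10 lower with 20% therapy. Nr1h4, the bile acid receptor FXR, fell by 0.55 ± 0.10 and 0.78 ± 0.10 in the 20% groups (edgeR adjusted p = 0.00101 and 1.66e-05), and Cebpa, a hepatocyte transcription factor, by 0.98 ± 0.13 with 20% therapy (3.06e-05). Of 12 reporter targets of CAR, PXR, the aryl hydrocarbon receptor and NRF2, 4 were higher with 20% prevention and 3 with 20% therapy, and 1 was lower in each. Srxn1, an NRF2 target, rose by 1.72 ± 0.37 and 1.79 ± 0.37 (edgeR adjusted p = 0.00344 and 0.00155), and Cyp2c55, a CAR and PXR target, by 1.42 ± 0.32 and 1.76 ± 0.32 (0.00510 and 0.000555).

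Of 10 male-biased liver genes, 9 were lower with FAT-MASH, and with 20% prevention and therapy 3 and 4 were lower than with FAT-MASH and 1 higher. Of 10 tested female-biased genes, 1 was higher with FAT-MASH, and 2 and 1 were higher with 20% prevention and therapy, with medians of 0.29, 0.70 and -0.14. Of 12 genes of periportal hepatocytes, 8 and 9 were lower in the 20% groups and 0 and 1 higher, and of 12 pericentral genes 3 and 2 were higher and 2 lower in each. Of 8 cholangiocyte markers 4 and 5 were higher, and of 8 stellate cell and fibroblast markers 3 were higher with 20% therapy. Hsd3b5, a male-specific steroid enzyme, fell by 5.64 ± 0.54 with FAT-MASH (edgeR adjusted p = 1.1e-06) and by a further 3.51 ± 0.62 with 20% prevention (0.000757). Of 8 hepatocyte markers 5 were lower in each 20% group, with medians of -0.56 and -0.58. The part of these marker shifts in the members' changes was not tested.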

How the data were processed

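Counts per gene in 25 liver libraries were deposited by the authors as whole numbers from featureCounts (2.0.1 per the file header, 2.0.6 per the submitters' processing notes) after alignment with STAR to GRCm39, with GENCODE M31 per the file header. No options for strand, pairs or multiple alignments are given in the sources used here. From these counts, CPM with TMM scaling were computed within each batch. Differences were tested with edgeR 4.0.16 (quasi-likelihood, filterByExpr, Benjamini-Hochberg over all genes tested, threshold 0.05) in R 4.3.3: in 1 fit of the 18 libraries of batch 1 (19571 genes), 1 of the 7 of batch 2 (18462 genes) and, for the difference between diets, 1 of all 25 libraries with a batch term (21373 genes). The scripts were tested on simulated data. DESeq2 1.42.0, limma 3.58.1 (voom), other scalings, no filter, other sample sets, a replicate block and leaving out each library were the alternatives.

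The members and gene lists were chosen with earlier results of these data known. By library, values are given for the 3 members of each family with the highest level per kilobase and up to 8 with the largest changes past the threshold, and from each list up to 2 genes with the smallest p. Bpnt2 and Sts were not matched by symbol. Replicates did not differ by less than sampling noise in any pair. Promoter sequences are from RefSeq on GRCm38.p6. In 46 of 49 promoters the last 25 bases were found in a transcript of the reference. One regulator of the lists, and a motif search tied to it, are not reported here.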

Additional observations from a re-analysis of the deposited data

Results flagged for a closer look

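The dose effect (20% against 5% mannose) differed between prevention and therapy by an interaction test for 5 members on the log2 scale: Ugt1a6a by 1.89, Ugt2b36 by 1.08, Ugt1a1 by 1.05, Ugt3a2 by 0.78 and Gstp3 by -0.82. Among these, Ugt1a6a was the one call that held under the alternatives run. None of these alternatives changed how reads shared between genes were counted. Of the 100-base stretches of Ugt1a6a, 100% also occur in another gene's transcripts, mainly Ugt1a7c.

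The effect of 20% mannose over 12 weeks differed between FAT-MASH and normal diet by an interaction test for 8 members. The differences were 3.05 for Gsta1, 2.71 for Gstm3, 1.16 for Gstm2, -1.11 for Gstp3, -1.13 for Sult1b1, -1.38 for Ugt1a6a, -2.64 for Sult2a8 and -3.63 for Sult2a7. The normal-diet side rests on batch 2, with 2 libraries without mannose and 3 with 20%. There Gstp3 and Ugt1a6a were higher in every library with 20% mannose than in those without. Such a separation was seen for 3 of 47 members on the higher side and 2 on the lower side. In groups this small it can arise by chance, and its share over all genes was not computed.

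A library stood apart among the 5 on normal diet for 4 members, with CPM scaled over all 25 libraries. Gsta4 was at 150.0 CPM in replicate 5 and Gstt2 at 96.4 CPM in replicate 3. Ugt2a3 was at 300.0 CPM in replicate 2, the lowest of its group. Sult4a1 was at 0.269 CPM in replicate 3, from 8 counts. By chance about 1 in 20 groups would show such a gap, and all 47 members were checked. The gap was 0.713 of the range for Gsta4 and 0.715 for Gstt2, just above the limit of 0.71. The 5 libraries come from both batches.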

How the results depend on the processing

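No member that passed in the main fit or under an alternative had the opposite sign in the other. Signs of members that passed in neither were not compared. The balance of the counts did turn with library totals alone. For 20% prevention, 4 higher and 9 lower became 7 and 4, and for the diet difference 3 higher and 5 lower became 5 and 4. Of the member calls, 6 of 10 for FAT-MASH, 0 of 2 for 5% prevention, 8 of 13 for 20% prevention, 17 of 22 for 20% therapy and 15 of 20 for 20% against 5% held under the alternatives run. The cause of the other changes was not tested, and few mice per group limit small changes.

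Members higher, where the count moved: FAT-MASH 0 became 1 with DESeq2, 2 with no filter, 1 with voom and 1 with only the groups compared. 5% prevention 0 became 1 with DESeq2 and 5 with no filter. 20% prevention 4 became 7 with DESeq2, 7 with library totals alone, 11 with no filter and 7 with only the groups compared. 5% therapy 0 became 7 with no filter, 20% therapy 6 became 10 with totals alone, 20% against 5% 3 became 5 with no filter, and prevention against therapy 0 became 2 with no filter. Dose by timing 4 became 12 with DESeq2, 21 with no filter and 16 with voom. On normal diet 20% mannose 0 became 1 with all 25 libraries. The diet difference 3 became 5 with totals alone and 8 with no filter.

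Members lower: FAT-MASH 10 became 19 with no filter, 16 with voom and 18 with only the groups compared. 5% prevention 2 became 1 with totals alone, 5 with no filter and 1 with the replicate block. 20% prevention 9 became 4 with totals alone, 5% therapy 0 became 1 with DESeq2 and 2 with no filter, prevention against therapy 0 became 1 with no filter, and dose by timing 1 became 3 with totals alone and 3 with no filter. On normal diet 5% mannose 0 became 1 with all 25 libraries and 20% mannose 0 became 1 with no filter. The diet difference 5 became 8 with no filter.

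All genes: 5% prevention 445 became 943 with DESeq2, 1254 with no filter and 676 with voom. 5% therapy 7 became 85, 339 and 4 in that order, and 1 with only the groups compared. With totals alone, 20% therapy 4195 became 6520 and 20% against 5% 3334 became 5188. Prevention against therapy 0 became 20 with DESeq2 and 228 with no filter. Dose by timing 424 became 1036 with DESeq2, 722 with totals alone, 1364 with no filter and 1043 with voom. On normal diet 5% mannose 0 became 42 with DESeq2, 1 with totals alone, 222 with no filter and 7 with all 25 libraries. 20% mannose 1 became 69, 4, 254 and 32 in that order, 6 with voom and 0 with only the groups compared.

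Leaving out 1 library at a time gave these ranges of members higher, members lower and all genes. FAT-MASH gave 0 to 0, 7 to 10 and 1806 to 2081. 5% prevention gave 0 to 1, 0 to 2 and 127 to 344. 20% prevention gave 4 to 7, 4 to 9 and 1938 to 2476. 5% therapy gave 0 to 0, 0 to 0 and 0 to 43. 20% therapy gave 3 to 6, 14 to 17 and 3072 to 3770. 20% against 5% gave 3 to 5, 15 to 18 and 2648 to 3516. Prevention against therapy gave 0 to 0, 0 to 0 and 0 to 1. Dose by timing gave 1 to 11, 0 to 1 and 72 to 583. On normal diet 5% mannose gave 0 to 1, 0 to 0 and 0 to 148, and 20% mannose 0 to 1, 0 to 0 and 0 to 159. The diet difference gave 1 to 5, 2 to 7 and 545 to 1253.

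With the replicate number as a block, FAT-MASH gave 0 members higher and 10 lower, 20% prevention 5 and 8, 20% therapy 7 and 18, 20% against 5% 4 and 17, and dose by timing 6 and 1. Same-numbered libraries correlated at -0.39 to 0.22 in their deviations from the group means, and differently numbered ones at -0.33 to 0.37. No pairing by number was seen in these values. Whether same-numbered mice shared a cage or a day cannot be told from them. The block ended 4 calls named in the report: Sult1b1 with FAT-MASH (0.0556), Ugt1a6a with 5% prevention (0.0587), Gstm7 with 20% prevention (0.0546) and Ugt3a2 for dose by timing (0.0554, edgeR adjusted p). No block was fitted for batch 2.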
